A study of Mus musculus with 6 samples.

Results

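The genes that move calcium into, out of and within the cell were compared between control dendritic cells and dendritic cells treated with DB2313. The group held the protein-coding genes of 16 families, picked by their symbols: the subunits of voltage-gated calcium channels (Cacna1, Cacna2d, Cacnb and Cacng), the store-operated entry genes (Stim and Orai), the transient receptor potential channels (Trpc, Trpm and Trpv), the release channels of the stores (Itpr, Ryr and Tpcn), the calcium pumps (Atp2a, Atp2b and Atp2c) and the mitochondrial uniporter genes (Mcu). It counted 74 of the 54532 genes in the table, and 41 of the 74 had enough counts to be tested. The choice by symbol took in members that form no channel or pump, such as Trpc4ap, a protein that binds Trpc4, Mcur1, a regulator of the uniporter, and Trpc5os, a gene named for the strand opposite Trpc5. The Cacng family also holds Cacng8, best known as an auxiliary subunit of AMPA-type glutamate receptors.

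RNA-seq was performed on 6 libraries of cultured mouse dendritic cells, the antigen-presenting cells that activate T cells, with 3 control and 3 DB2313-treated libraries. DB2313 is a small molecule that, in the words of the study, inhibits Spi1 (PU.1), a transcription factor that drives myeloid gene expression. Cells of both groups were kept in medium with serum and antibiotics, and the labels named no strain, genotype, age, dose or duration. The labels named dendritic cells while the paper spoke of macrophages, and the treated columns carried the name of Spi1, so that the directions given here hold only if those columns are the DB2313 libraries.

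A resting cell keeps its cytosolic calcium low by pumping the ion out through the plasma membrane and into the endoplasmic reticulum. A signal at a surface receptor produces IP3, which opens the IP3 receptors of the reticulum, and the emptied store is sensed by Stim proteins, which open Orai channels in the plasma membrane. In dendritic cells and macrophages, calcium entering by this and other routes bears on migration, antigen handling and cytokine production.

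Total counts ranged from 16146743 to 19764677 per library, and the 74 genes together took 0.240% to 0.273% of them. Pairs of libraries of a group differed by more than sampling noise, and the distance was greatest between DB2313 replicates 1 and 3, with a chi-square of 17.7 per degree of freedom against at most 8.60 for any other pair. Mitochondrial genes took 2.06% to 2.41% of the counts in control and 1.46% to 1.57% with DB2313. The 11 dendritic cell markers summed to 10821 to 11129 CPM in control and 9169 to 10828 CPM with DB2313. All 11 had enough counts to be tested, and 2 of them fell, Itgax and Batf3 (CPM, the unit of levels here, is the count of a gene relative to the scaled library size). Of the 8 macrophage markers 4 fell and 1 rose (sums of 1506 to 1608 and 1165 to 1437 CPM), and of the 7 neutrophil markers 2 rose (3261 to 3657 and 3446 to 4431 CPM). Of the 7 mast cell and basophil markers 6 could be tested and 1 rose (1262 to 1332 and 1255 to 1502 CPM), and none of the 7 T cell markers passed the test (159 to 189 and 161 to 240 CPM). B cell, erythroid and fibroblast markers, of which 0, 1 and 1 of 4 each could be tested, summed to 0.451 to 3.64 CPM in every library, with Dcn at 0. The part of these shifts in the results below was not tested, and in bulk RNA fewer cells of a type and less RNA per cell cannot be told apart.

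Of the 41 tested calcium genes, 8 passed an adjusted p of 0.05 in edgeR's quasi-likelihood test, which is 19.5%, against 10.6% of all 14174 genes tested. Tpcn1 and Trpm6 rose, which is 4.88% of the members against 4.66% of all genes called higher. Trpm6 could pass the filter on low counts only through the DB2313 libraries. The other 6, Cacnb3, Cacna2d2, Cacng8, Cacna1d, Trpv4 and Mcub, fell, which is 14.6% against 5.94% of all genes called lower. The libraries of the groups were fully apart in CPM for 11 members (26.8%), against 27.4% of all genes tested, so that the share of separated members lay close to that of the background. The log2 fold change, DB2313 against control, was positive for 12 members and negative for 29, with a median of -0.16 where the median of all genes was 8.2e-04. An unadjusted p under 0.05 was found for 14 of the 41 members and for 3309 of the 14174 genes tested.

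Of the 6 genes that fell, 4 belong by symbol to the subunit families of voltage-gated calcium channels. Cacng8, among these 4, is best known as an auxiliary subunit of AMPA-type glutamate receptors. In these subunit families 12 genes were tested and 8 did not pass. Among all genes tested, 5.94% were called lower. The families were not tested as a set. The deposited coordinates of the 8 called genes follow, as GRCm38. Cacnb3 (ENSMUSG00000003352) lies on chromosome 15 from 98630840 to 98644529, Cacna2d2 (ENSMUSG00000010066) on chromosome 9 from 107399612 to 107529343, Cacng8 (ENSMUSG00000053395) on chromosome 7 from 3390683 to 3415648 and Trpm6 (ENSMUSG00000024727) on chromosome 19 from 18749983 to 18892510, all on the plus strand. Cacna1d (ENSMUSG00000015968) lies on chromosome 14 from 30039939 to 30491455, Trpv4 (ENSMUSG00000014158) on chromosome 5 from 114622152 to 114658421, Tpcn1 (ENSMUSG00000032741) on chromosome 5 from 120534153 to 120588673 and Mcub (ENSMUSG00000027994) on chromosome 3 from 129914960 to 129970206, all on the minus strand.

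The 250 bases before the start of 3 of these genes are shown because Spi1, the factor that DB2313 is described to inhibit, binds a purine-rich core, GAGGAA. They come from RefSeq with the build GRCm38.p6 and read 5′ to 3′ along the strand of the gene. Capitals mark GAGGAA, searched on both strands. Mcub and Cacng8 hold it, and Trpv4 is shown as a called gene without it. The Mcub window is chr3:129970207-129970456 on the minus strand, the Cacng8 window chr7:3393792-3394041 on the plus strand and the Trpv4 window chr5:114658422-114658671 on the minus strand.
Mcub: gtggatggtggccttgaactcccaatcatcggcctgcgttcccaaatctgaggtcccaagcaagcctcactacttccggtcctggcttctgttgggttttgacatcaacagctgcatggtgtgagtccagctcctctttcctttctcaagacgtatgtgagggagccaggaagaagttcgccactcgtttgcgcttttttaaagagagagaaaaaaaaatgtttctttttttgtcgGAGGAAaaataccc
Cacng8: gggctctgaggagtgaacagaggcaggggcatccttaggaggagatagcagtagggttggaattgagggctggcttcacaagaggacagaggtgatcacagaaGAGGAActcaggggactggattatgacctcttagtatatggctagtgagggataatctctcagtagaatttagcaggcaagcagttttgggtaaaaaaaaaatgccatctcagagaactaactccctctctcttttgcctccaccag
Trpv4: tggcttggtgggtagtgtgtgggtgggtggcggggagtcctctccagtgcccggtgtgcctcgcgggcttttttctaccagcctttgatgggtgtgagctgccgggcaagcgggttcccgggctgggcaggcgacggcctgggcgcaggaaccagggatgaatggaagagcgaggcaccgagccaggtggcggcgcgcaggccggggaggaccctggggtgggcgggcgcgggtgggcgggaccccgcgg

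In Mcub the first base of the motif stood 14 bases before the start, which is also the deposited gene start. In Cacng8 it stood 147 bases before the RefSeq start, which lay 3359 bp inside the deposited gene. No GAGGAA was found in the windows of Cacna1d, Cacna2d2, Cacnb3, Trpm6 and Trpv4, and Tpcn1 had no entry. Across 32851 windows of the same 250 bases, over all genes, 23.3% held GAGGAA, against 17% of 47 windows of 35 tested calcium genes. GAGGAAGT, a longer form that contains GAGGAA, was found in 2.44% of all windows and, among the tested calcium genes, in 2 of the 3 windows of Trpv2, which largely cover the same bases. These matches describe letters in a window and no binding.

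Cacnb3 encodes an intracellular auxiliary subunit that carries voltage-gated channels to the membrane, and it was the highest of all calcium genes per length. Its level was 162 ± 1.22 RPKM in control and 127 ± 4.55 RPKM with DB2313 (SD, n = 3 each), where RPKM is CPM per kilobase of the deposited gene length. The next gene, Atp2a3, was at 44.8 ± 0.815 and 48.0 ± 2.56 RPKM. In CPM, Cacnb3 was at 650, 645 and 655 in the control libraries and at 531, 503 and 497 in the DB2313 libraries. The groups were apart, and the control libraries lay close together. Its log2 fold change was -0.35 ± 0.06 (SE), and the level fell by 21.6%, with an adjusted p of 0.00222 in edgeR. It stayed past the threshold in all 15 alternatives, with a log2 fold change between -0.38 and -0.33.

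The other 3 genes of the Cacnb class overlapped between the groups. Cacnb1 had a log2 fold change of -0.35 ± 0.16 at an edgeR adjusted p of 0.206. Cacnb2 was at 0.10 ± 0.20 (adjusted p of 0.813) and Cacnb4 at -0.58 ± 0.34 (0.339, log2 fold change ± SE, edgeR). They were far lower than Cacnb3, from 0.294 RPKM for Cacnb4 to 3.21 RPKM for Cacnb1 in control.

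Cacna2d2 encodes an auxiliary subunit with an extracellular part that raises the number of channels at the membrane. It was at 17.6, 26.0 and 18.7 CPM in control and at 12.3, 10.3 and 12.6 CPM with DB2313. Control replicate 2 stood above the rest, and without overlap the 3 DB2313 libraries were lower. For Cacna2d2 the log2 fold change was -0.83 ± 0.16 (SE), and the level fell by 43.7%, at an edgeR adjusted p of 0.00273. It ranged from -0.93 to -0.63 over the alternatives and passed in all 15. Cacna2d1 and Cacna2d4 had at most 9 counts in any library, and Cacna2d3 was at 0 in all of them.

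Cacng8 encodes a gamma family member best known as an auxiliary subunit of AMPA-type glutamate receptors in brain. Its values were 15.7, 13.5 and 15.5 CPM in control and 10.4, 7.22 and 6.97 CPM with DB2313. The groups were apart, and DB2313 replicate 1 lay between the other DB2313 libraries and the controls. For Cacng8 the log2 fold change was -0.87 ± 0.17 (SE), and the level fell by 45.2%, at an edgeR adjusted p of 0.00316, and it passed in all 15 alternatives. An annotated miRNA gene, Gm23450, overlaps its exons by 91 bp on the same strand.

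Cacng7 and Cacng6, further members of the gamma family, flank Cacng8 on the plus strand of chromosome 7, within 3332955 to 3435667. Cacng7 was at 2.27, 3.20 and 4.01 CPM in control and at 1.70, 2.41 and 1.56 CPM with DB2313, with a log2 fold change of -0.73 ± 0.32 (SE) at an edgeR adjusted p of 0.175. Cacng6 was at 1.11, 1.19 and 1.63 CPM in control and at 1.15, 0.401 and 0.361 CPM with DB2313, with -1.05 ± 0.50 and 0.226. Both pairs of groups overlapped and neither gene passed in any alternative, and Cacng6 had 6 to 26 counts per library and passed the filter on low counts through the control libraries. The other 5 genes of the family were not tested.

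Cacna1d encodes the pore-forming subunit of an L-type channel. It was measured at 9.28, 9.66 and 5.90 CPM in control and at 3.10, 5.42 and 5.29 CPM with DB2313. The lowest control library, replicate 3, stood just above the highest DB2313 library. Its fitted log2 fold change was -0.84 ± 0.24 (SE), at an edgeR adjusted p of 0.0377. The call depended on single libraries, since the adjusted p was 0.163 without control replicate 1, 0.187 without control replicate 2, 0.0667 without DB2313 replicate 1 and 0.0607 without DB2313 replicate 2. It was also 0.0533 when the libraries were scaled by their totals. The exons of Cacna1d overlap those of Chdh on the opposite strand by 589 bp, and without knowledge of the strandedness reads there cannot be told apart. Chdh itself had a log2 fold change of -0.28 ± 0.28 and an adjusted p of 0.616.

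The other pore-forming genes were low. Cacna1b had a log2 fold change of -0.16 ± 0.18, Cacna1a of 0.32 ± 0.35 and Cacna1f of 0.13 ± 0.30 (SE), with edgeR adjusted p of 0.653, 0.645 and 0.850. Their levels in control were 0.876, 0.146 and 0.283 RPKM. The remaining 6 of the family were not tested, and the highest of them, Cacna1g, had 3 to 10 counts per library.

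**Figure D1:**
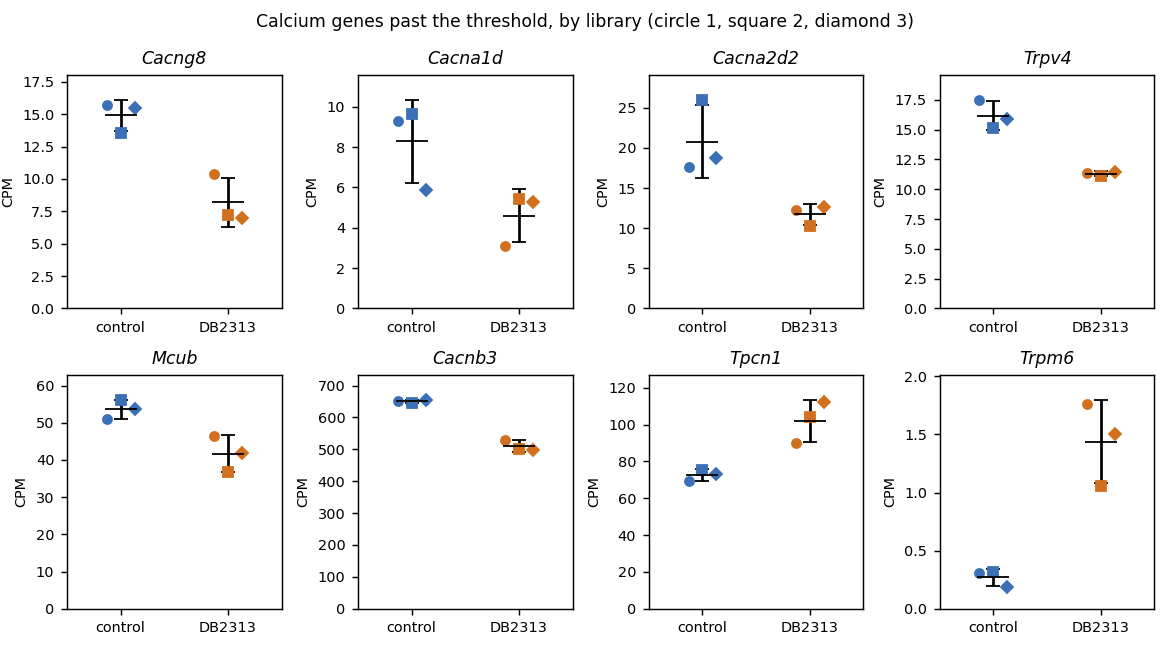
CPM (y axis, from 0) of the 8 calcium genes past the threshold in the control and DB2313 libraries, each in a panel of its own. Symbols stand for replicates 1, 2 and 3, and bars for the mean ± SD of 3 libraries. The groups did not overlap in any panel, and Cacna1d came closest, with a lowest control of 5.90 and a highest DB2313 library of 5.42 CPM.

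Of the 5 Stim and Orai genes, which form the core of store-operated entry, the main route of calcium into many immune cells, 0 passed in edgeR, against 10.6% of all genes, and 0 had an unadjusted p under 0.05 or passed in DESeq2 or limma-voom. Stim1, a calcium sensor of the endoplasmic reticulum, was at 70.0, 69.6 and 64.2 CPM in control and at 65.4, 67.8 and 70.7 CPM with DB2313. Its 95% interval for the log2 fold change ran from -0.17 to 0.17. Stim2, the related sensor that responds to smaller losses of calcium, was at 41.4, 43.2 and 41.3 CPM against 42.6, 43.0 and 44.3 CPM, with an interval from -0.13 to 0.22. The groups overlapped for both sensors. Neither passed, with edgeR adjusted p of 0.999 and 0.799.

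Orai1, the main pore of store-operated entry, was at 88.6, 94.9 and 98.2 CPM in control and at 107, 100.3 and 87.4 CPM with DB2313. Orai2 was at 97.5, 94.8 and 98.2 CPM against 90.8, 94.5 and 97.2 CPM. Orai3 was at 52.3, 54.8 and 57.8 CPM against 53.3, 52.0 and 50.7 CPM. The groups overlapped for all 3 pores. Their 95% intervals for the log2 fold change ran from -0.12 to 0.24 for Orai1, from -0.19 to 0.11 for Orai2 and from -0.25 to 0.09 for Orai3, with edgeR adjusted p of 0.727, 0.797 and 0.614. Per length, Orai1 was the highest of the 3 at 40.9 ± 2.13 RPKM in control (SD, n = 3). Orai3 followed at 25.7 ± 1.30 and Orai2 at 15.9 ± 0.291 RPKM. The place of Orai2 rests on its deposited length of 6077 bp, against 2295 bp for Orai1 and 2141 bp for Orai3. In CPM, Orai1 and Orai2 were close in control, at means of 93.9 and 96.8. The ratio of Orai1 to Orai2 per length was 2.41 to 2.65 in control and 2.38 to 3.11 with DB2313, and that of Stim1 to Stim2 was 0.770 to 0.838 and 0.759 to 0.789.

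Among the transient receptor potential channels, which are cation channels gated by temperature, lipids, stretch or metabolites, 1 gene fell and 1 rose. The genes tested were 2 of Trpc, 4 of Trpm and 2 of Trpv. Over all genes tested, 4.66% were called higher and 5.94% lower. Trpv4, opened by cell swelling and warmth, was at 17.5, 15.1 and 15.9 CPM in control and at 11.4, 11.1 and 11.5 CPM with DB2313. The DB2313 libraries lay close together and below all controls. For Trpv4 the log2 fold change was -0.51 ± 0.13 (SE), and the level fell by 30.0%, at an edgeR adjusted p of 0.0158. The adjusted p was 0.0840 without control replicate 1, 0.0504 without control replicate 3 and 0.0734 without DB2313 replicate 2, and the log2 fold change stayed between -0.55 and -0.45 over the 15 alternatives. Trpv2, the most abundant of the family, was at 136, 155 and 138 CPM in control against 134, 137 and 152 CPM with DB2313, with a log2 fold change of -0.02 ± 0.08 and an adjusted p of 0.898.

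Trpm6, a magnesium- and calcium-permeable channel fused to a kinase, rose from a very low level. It had 5, 5 and 3 counts in the control libraries and 29, 21 and 25 in the DB2313 libraries, which is 0.307, 0.314 and 0.188 CPM against 1.76, 1.05 and 1.502 CPM. It could pass the filter on low counts only through the DB2313 libraries, so that it had to differ in order to be tested. In the fit the log2 fold change was 2.37 ± 0.50 (SE), with a 95% interval from 1.30 to 3.45 at an edgeR adjusted p of 0.00659, and it passed in all 15 alternatives. Trpm7, the closest relative of Trpm6 and also fused to a kinase, was at 76.7, 79.8 and 73.1 CPM in control and at 60.4, 65.8 and 75.7 CPM with DB2313. The groups overlapped through DB2313 replicate 3, and the log2 fold change was -0.19 ± 0.09 with an adjusted p of 0.233. Without DB2313 replicate 3 these values were -0.28 and 0.0259.

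Trpm2, a channel opened by ADP-ribose and oxidative stress, was at 93.5, 90.5 and 82.6 CPM in control and at 80.9, 82.4 and 104 CPM with DB2313, at an edgeR adjusted p of 0.993. The groups overlapped, with DB2313 replicate 3 the highest library of all. Trpm4, a channel opened by calcium that carries sodium and potassium, had a log2 fold change of -0.12 ± 0.14 and an adjusted p of 0.691. Trpc4ap was at 231, 247 and 249 CPM in control and at 240, 221 and 210 CPM with DB2313, with -0.11 ± 0.07 at an edgeR adjusted p of 0.385. Trpc6, opened by diacylglycerol, was the only true Trpc channel tested, at 18, 8 and 4 counts in control and 17, 16 and 17 with DB2313. It passed the filter on low counts through the DB2313 libraries, since the control libraries alone were too low. Its log2 fold change was 0.60 ± 0.53 with an adjusted p of 0.550.

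**Figure D2:**
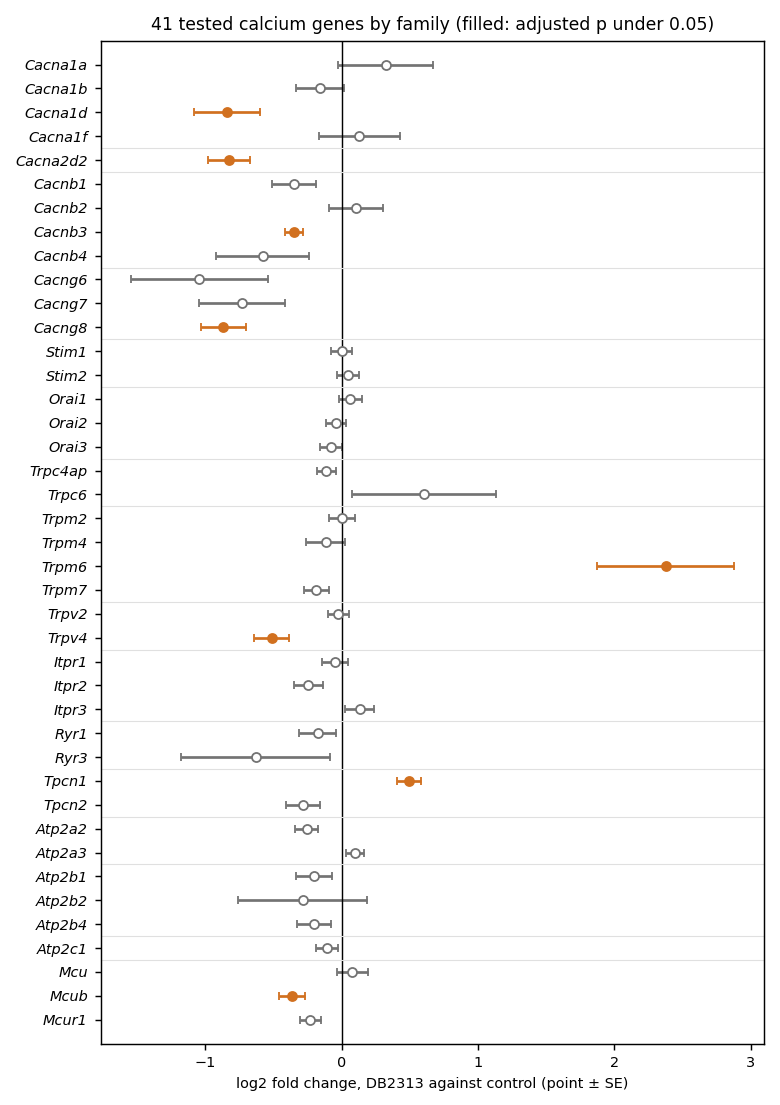
Log2 fold change, DB2313 against control, with its SE (x axis) for the 41 tested calcium genes, grouped by family (y axis). Filled points mark an adjusted p under 0.05, with Trpm6 at 2.37 and Tpcn1 at 0.49 to the right of 0 and 6 genes to the left, while the Stim and Orai genes lie between -0.08 and 0.06.

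Of the channels that release stored calcium, Tpcn1 rose. It encodes a cation channel of endosomes and lysosomes that takes part in signals set off by NAADP. Tpcn1 was at 69.1, 75.5 and 73.2 CPM in control and at 89.9, 104 and 112 CPM with DB2313. Every DB2313 library was above every control library. For Tpcn1 the log2 fold change was 0.49 ± 0.09 (SE), a rise by 40.7%, at an edgeR adjusted p of 0.00206, and it ranged from 0.42 to 0.58 over the 15 alternatives and passed in all of them. Tpcn2, the related lysosomal channel, was at 41.3, 29.0 and 34.2 CPM in control and at 30.2, 25.3 and 30.2 CPM with DB2313, with a log2 fold change of -0.29 ± 0.12 and an adjusted p of 0.175. The ratio of Tpcn1 to Tpcn2 per length was 1.04 to 1.62 in control and 1.85 to 2.56 with DB2313, without overlap.

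All 3 IP3 receptors were expressed and none passed, against 10.6% of all genes. Itpr1 was at 42.7, 44.7 and 41.1 CPM in control and at 37.8, 40.1 and 46.4 CPM with DB2313, with a log2 fold change of -0.05 ± 0.10 at an edgeR adjusted p of 0.815. Itpr2 was at 37.0, 44.7 and 41.6 CPM against 30.4, 34.7 and 38.8 CPM, with -0.25 ± 0.11 and 0.176. Itpr3 was at 48.7, 54.9 and 54.5 CPM against 48.9, 57.4 and 67.1 CPM, with 0.13 ± 0.11 and 0.510. In each of the 3 receptors DB2313 replicate 1 was the lowest and DB2313 replicate 3 the highest of the treated libraries. Without DB2313 replicate 3, Itpr2 had a log2 fold change of -0.33 and an adjusted p of 0.0331. Itpr3 was the highest per length at 5.86 ± 0.388 RPKM in control, against 2.77 ± 0.262 for Itpr2 and 2.34 ± 0.0979 for Itpr1 (SD, n = 3). Its exons overlap the antisense gene Itpr3os by 233 bp.

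The ryanodine receptors, the large release channels of muscle, were low. Ryr1 was at 18.7, 15.5 and 16.2 CPM in control and at 16.8, 15.3 and 12.4 CPM with DB2313, with a log2 fold change of -0.18 ± 0.14 at an edgeR adjusted p of 0.495. It shares 864 bp of exon with an antisense gene. Ryr3 had 7 to 33 counts per library, the highest of them in control replicate 3, and an adjusted p of 0.546.

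The pumps that refill the endoplasmic reticulum are encoded by Atp2a2 and Atp2a3, the form common to most cells and the form typical of blood cells. Atp2a2 was at 174, 170 and 168 CPM in control and at 125, 144 and 158 CPM with DB2313. Each DB2313 library was lower than each control library, and DB2313 replicate 3 was the closest to them. For Atp2a2 the log2 fold change was -0.26 ± 0.08 (SE), at an edgeR adjusted p of 0.0600, just outside the threshold. Its adjusted p was 0.0434 with DESeq2, 0.0491 with limma-voom, 0.0278 with an offset for gene length, 0.0361 without the filter on low counts and 0.00253 without DB2313 replicate 3, and it reached 0.196 without control replicate 1. Atp2a3 was at 238, 240 and 232 CPM in control and at 244, 246 and 269 CPM with DB2313, without overlap, but with a log2 fold change of 0.10 ± 0.07 at an edgeR adjusted p of 0.428. The ratio of Atp2a3 to Atp2a2 per length was 1.58 to 1.63 in control and 1.96 to 2.25 with DB2313. A stretch of 362 bp of Atp2a2 is at least 95% identical to a processed pseudogene. Atp2a1, the form of fast muscle, had 1 to 16 counts per library and was not tested.

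Of the pumps of the plasma membrane, Atp2b1 was the highest. It was at 145, 143 and 120 CPM in control and at 89.4, 120 and 144 CPM with DB2313, the widest spread of the treated libraries among the pumps. Its fitted log2 fold change was -0.20 ± 0.13, at an edgeR adjusted p of 0.386. Without DB2313 replicate 3 it was -0.37 with an adjusted p of 0.0116, and without DB2313 replicate 1 it was -0.04 with 0.862. A stretch of 468 bp of Atp2b1 is at least 95% identical to a pseudogene. Atp2b4 had -0.20 ± 0.13 and 0.372, and Atp2b2, with 9 to 15 counts per library, -0.29 ± 0.48 and 0.780. Atp2c1, the calcium and manganese pump of the Golgi, was at 70.0, 63.3 and 68.4 CPM in control and at 58.5, 63.6 and 65.1 CPM with DB2313, with -0.11 ± 0.08 and 0.479.

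Of the 3 uniporter genes, 1 fell, which is 33.3%, against 5.94% of all genes called lower. Mcu, the pore, was at 18.8, 23.8 and 20.1 CPM in control and at 21.4, 21.4 and 23.4 CPM with DB2313, with a log2 fold change of 0.08 ± 0.12 at an edgeR adjusted p of 0.753. Mcub, a pore-like subunit that lowers the activity of the uniporter, was at 51.1, 56.1 and 53.6 CPM in control and at 46.5, 36.7 and 41.9 CPM with DB2313. The groups did not overlap for Mcub. Its log2 fold change was -0.36 ± 0.10 (SE), and the level fell by 22.3%, at an edgeR adjusted p of 0.0239. The call was lost without control replicate 1 (0.0581), control replicate 2 (0.127), control replicate 3 (0.0854) or DB2313 replicate 2 (0.168), with the log2 fold change between -0.45 and -0.28 over all alternatives.

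Mcur1 was at 87.6, 85.2 and 82.9 CPM in control and at 66.5, 75.4 and 76.0 CPM with DB2313. The groups did not overlap, but the log2 fold change of -0.23 ± 0.08 had an edgeR adjusted p of 0.0829, which was 0.0320 without DB2313 replicate 3. Per length, Mcub stood at 40.7 ± 1.92 RPKM in control and 31.6 ± 3.72 RPKM with DB2313, and Mcu at 3.01 ± 0.370 and 3.18 ± 0.164 RPKM (SD, n = 3). The ratio of Mcub to Mcu per length was 12.4 to 14.3 in control and 9.04 to 11.4 with DB2313. Its size rests largely on the deposited lengths of 1318 bp for Mcub and 6936 bp for Mcu. In CPM the control means were 53.6 for Mcub and 20.9 for Mcu.

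**Figure D3:**
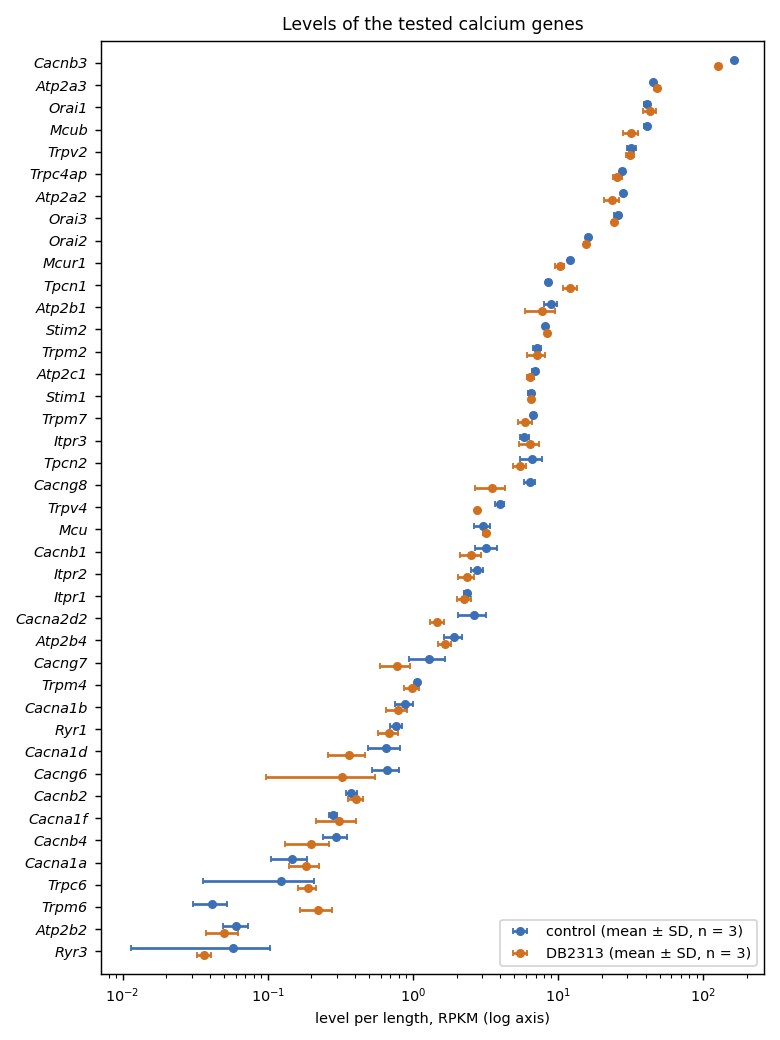
Level per length in RPKM (x axis, log scale) of the 41 tested calcium genes, as the mean ± SD of 3 control and 3 DB2313 libraries, ordered by level (y axis). Cacnb3 stands apart at the top at 162 and 127 RPKM, and Ryr3 is at the bottom at 0.0571 and 0.0366 RPKM.

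The 33 members that were not tested were at or near 0. Of these, 9 had no count in any library, among them Cacna1s, Cacna1i, Cacna2d3, Cacng1, Cacng3 and Trpv1. A count of 0 allows up to 3 counts per library. Another 11 had at most 3 counts in every library, among them Trpc1, Trpc4, Trpv3, Trpv6 and Trpm8. The other 13 exceeded 3 counts in at least 1 library, and the highest value was 16, for Atp2a1 in control replicate 2. These genes were Atp2a1, Cacna1g, Trpm5, Cacna1c, Ryr2, Trpm3, Trpm1, Cacna2d4, Cacna1e, Cacng4, Cacna1h, Atp2c2 and Trpc7.

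Across the libraries the DB2313 group was more spread than the control group. For the 29 members with a mean of at least 10 CPM, the median log2 ratio to the control mean was -0.18 in DB2313 replicate 1, -0.13 in replicate 2 and -0.08 in replicate 3. In control it was 6.6e-04, 0.03 and -0.03. DB2313 replicate 1 was the lowest treated library for 16 of the 29 genes and DB2313 replicate 3 the highest for 20. Calcium genes are long, with a median length of 8462 bp for the 41 tested members against 3988 bp for all genes tested. The log2 level relative to the mean library moved with gene length by -0.06, -0.02 and 0.03 per doubling of length in DB2313 replicates 1, 2 and 3, and by between -4.3e-04 and 0.04 in control. The 20 members above the median length had a median log2 fold change of -0.14 and 1 call, and the 21 others -0.23 and 7 calls. With an offset for gene length the median of the members was -0.09, where that of all genes was 0.0054, and all 8 calls were kept.

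**Figure D4:**
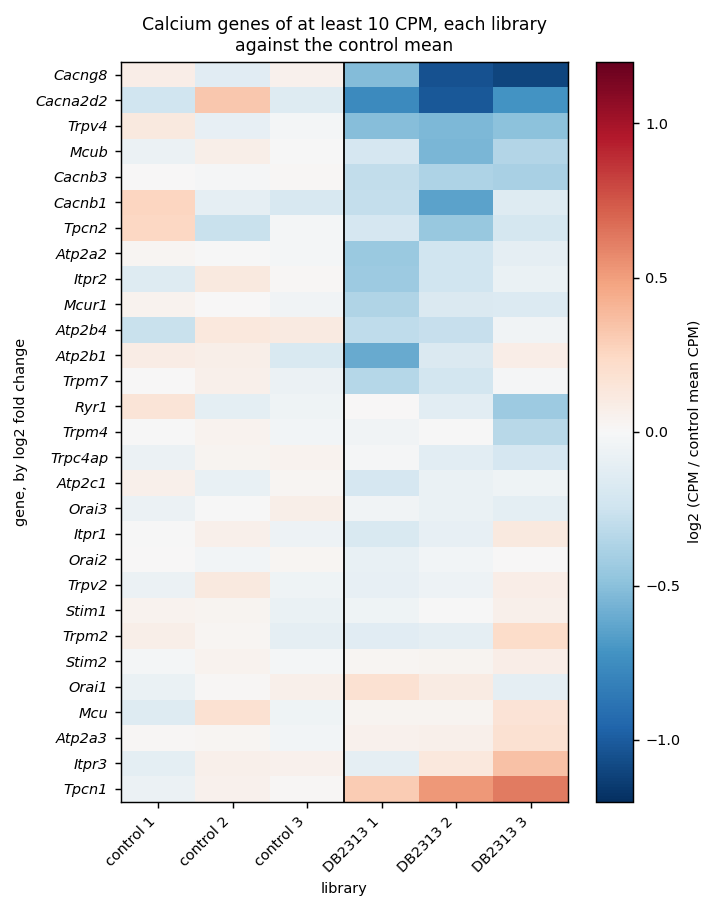
Log2 ratio of CPM to the control mean (colour) in each of the 6 libraries (x axis) for the 29 calcium genes of at least 10 CPM, ordered by log2 fold change (y axis). Blue is below and red above the control mean. Blue, in part faint, fills the rows from Cacng8 at the top down to Atp2b4 in every DB2313 library. In rows such as Atp2b1 the colour passes from blue in DB2313 replicate 1 to faint red in replicate 3.

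The calls of single members moved most with the omission of 1 library. Without DB2313 replicate 3, 13 members passed, the 8 above and Atp2a2, Atp2b1, Mcur1, Trpm7 and Itpr2, all 5 lower, which is 31.7% of the members against 16.6% of all genes tested in that fit. Without DB2313 replicate 2 or without control replicate 1 there were 5, namely Cacnb3, Tpcn1, Cacna2d2, Cacng8 and Trpm6, which is 12.2% of the members against 5.07% and 5.84% of all genes. The calls over all genes thus moved with the same libraries. These 5 genes passed in all 15 alternatives. With a filter on low counts, Trpm6 could be tested only through the DB2313 libraries.

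To place the members in their pathway, 112 genes that feed, regulate or read calcium signals were listed, and 110 were found in the table. Of the 91 tested, 11 passed (12.1%, against the 10.6% of all genes), 6 higher and 5 lower, with a median log2 fold change of -0.0069. Of the 12 phospholipases and other genes that generate or convert IP3, Plcd1 fell and Plcd3 rose. Each is 8.33% of them, against 5.94% of all genes called lower and 4.66% called higher. Plcd1 was at 21.5, 19.9 and 19.3 CPM in control and at 10.6, 12.2 and 11.4 CPM with DB2313, with a log2 fold change of -0.83 ± 0.12 (SE) at an edgeR adjusted p of 4.4e-04. Plcd3, which passed the filter only through the DB2313 libraries, had 3, 6 and 1 counts in control and 17, 23 and 21 with DB2313, with 2.43 ± 0.58 and 0.0137, and its adjusted p was 0.0810 without control replicate 3, 0.0760 without control replicate 1 and 0.0654 without DB2313 replicate 2. Cd38, an enzyme that makes the calcium-mobilising messengers cyclic ADP-ribose and NAADP, rose from 53.2, 51.7 and 51.7 CPM to 81.1, 90.2 and 86.9 CPM. Its log2 fold change was 0.72 ± 0.08 (SE), at an edgeR adjusted p of 3.4e-05, and it passed in all 15 alternatives, as did Plcd1, Cracr2b and Slc25a23.

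Of the 5 tested regulators of store-operated entry, 1 rose and 1 fell. Each is 20% of them, against 4.66% of all genes called higher and 5.94% called lower. The list was not tested as a set. Cracr2b, a calcium-binding regulator of Orai channels, was at 3.63, 2.70 and 3.70 CPM in control and at 8.501, 6.32 and 7.81 CPM with DB2313, with a log2 fold change of 1.17 ± 0.21 (SE) at an edgeR adjusted p of 0.00241. Its exons overlap a transcript on the opposite strand by 1405 bp. Tmem110, also called Stimate, a reticulum protein that supports Stim1, was at 40.0, 39.6 and 40.1 CPM against 33.3, 30.4 and 27.0 CPM, with -0.40 ± 0.10 and 0.0146. Without any 1 of the control libraries or without DB2313 replicate 2 its adjusted p was 0.0610 to 0.0703.

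Slc25a23, a mitochondrial carrier for ATP and phosphate regulated by calcium, was the only 1 of 14 tested genes of mitochondrial calcium handling to pass. This is 7.14%, against 10.6% of all genes. Slc25a23 was at 3.44, 4.20 and 2.82 CPM in control and at 9.05, 9.93 and 9.61 CPM with DB2313, with a log2 fold change of 1.45 ± 0.19 (SE) at an edgeR adjusted p of 2.1e-04. Its exons overlap an antisense gene by 168 bp. Slc8a2, a sodium-calcium exchanger that passed the filter through the DB2313 libraries, rose from 13, 8 and 8 counts to 29, 39 and 26 counts, with 1.54 ± 0.42 at an edgeR adjusted p of 0.0265. Without any 1 of the control libraries or without DB2313 replicate 2 its adjusted p was 0.0559 to 0.132.

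Of the 11 tested calcium buffers and chaperones of the reticulum, Rcn3 alone passed, which is 9.09% against 10.6% of all genes. Rcn3 was at 2.40, 0.878 and 1.69 CPM in control against 5.04, 3.91 and 3.91 CPM with DB2313. Its log2 fold change was 1.36 ± 0.33 (SE) and its edgeR adjusted p 0.0150, which was 0.0670 without control replicate 2 and 0.0527 without control replicate 3. The exons of Rcn3 overlap an antisense gene by 290 bp. Erlin1, which takes part in the breakdown of activated IP3 receptors, had -0.32 ± 0.10 and 0.0458, and it stayed past the threshold in 6 of 15 alternatives, with an adjusted p of up to 0.244 without control replicate 1. Among the genes that read the calcium signal, Camkk2, a kinase activated by calmodulin, fell by 0.38 ± 0.09 on the log2 scale, at an edgeR adjusted p of 0.0159 that was 0.112 without control replicate 1 and 0.0852 without DB2313 replicate 2. Ppp3ca, the catalytic subunit of calcineurin, was at 211, 219 and 209 CPM in control and at 190, 173 and 170 CPM with DB2313, with -0.26 ± 0.07 and 0.0244. It passed in 8 of 15 alternatives, and its adjusted p was at most 0.156, without DB2313 replicate 2. It was the only 1 of 11 tested calcineurin and NFAT genes to pass, which is 9.09% against 10.6% of all genes.

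Calm2, a gene of the calcium sensor calmodulin, was at 265, 249 and 269 CPM in control and at 319, 305 and 284 CPM with DB2313. The groups did not overlap, but the gene did not pass, with a log2 fold change of 0.21 ± 0.07 (SE) at an edgeR adjusted p of 0.0645. It passed at 0.0362 with DESeq2, at 0.0350 with library totals and at 0.00808 without DB2313 replicate 3.

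**Figure D5:**
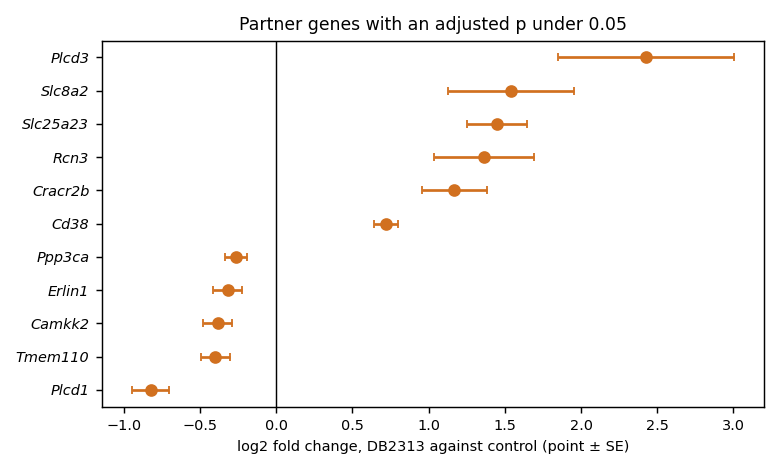
Log2 fold change, DB2313 against control, with its SE (x axis) for the 11 partner genes with an adjusted p under 0.05 (y axis). The 6 genes right of 0 reach 2.43 for Plcd3, and the 5 left of 0 reach -0.83 for Plcd1.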

How the data were processed

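The authors deposited 1 table of raw counts per gene in 6 libraries, which are whole numbers and not normalised, beside gene coordinates and gene lengths in base pairs. The submitters' processing notes name CASAVA 1.8, HISAT2 2.0.5 and featureCounts 1.5.0-p3, whereas the methods of the study name LifeScope. The genome build and the strandedness were not given in the sources used here. Of 54409 identifiers also found in GENCODE M21, 98.3% carried identical coordinates, and so had 72 of the 74 members, so coordinates are given as GRCm38.

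Groups came from the treatment in the labels. Columns were matched to samples by their short names, BMDC and the name of Spi1, each numbered 1 to 3 like the labels. Nothing says that the libraries came from separate cultures, so p-values measure the spread between these libraries, which may be technical. The members, the partner and marker lists and the naming rule were chosen with earlier results of these data known. The partner list was written from general knowledge. The rule named every member past the threshold, the member highest per length in each family, every tested Itpr, Orai, Stim and Mcu gene and every partner gene past the threshold. Other genes named were chosen after their values were seen.

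Counts were fitted with edgeR 4.0.16 in R 4.3.3 (quasi-likelihood, two-sided, TMM scaling, filterByExpr, prior count of 0.125, group as the only term), with Benjamini-Hochberg adjustment over the 14174 genes that passed the filter. The SE is the absolute log2 fold change divided by the square root of the F statistic. On simulated data for this comparison, 81.9% of 193 genes changed by 2-fold and 62.6% of 195 changed by 1.5-fold were recovered, with 10 and 9 false calls. These counts were drawn independently for each gene, without a length trend or other shift shared by the genes of a library. The real libraries held a length trend, so the figures need not carry over to them. The alternatives were DESeq2 size factors, library totals, a filter at a mean of 10 counts, no filter, DESeq2 1.42.0, limma-voom (limma 3.58.1), a gene-length offset (lowess with a span of 0.3), a replicate block, the block with the length offset, and the omission of each library. Copies were searched with blastn 2.17.0 among GENCODE M21 transcripts (95% identity over at least 100 bp). Of the 8 called members, only Cacna1d had a match, the stretch it shares with Chdh. Among the called partner genes, Cracr2b and Slc25a23 each had matches in 36 other genes. Rcn3 had a match in the antisense gene that overlaps it. Reads carried no molecular identifiers, and the errors cover the spread between libraries. The labels gave no batch or date. The values of some genes of these lists are not reported here.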

Additional observations from a re-analysis of the deposited data

How the results depend on the processing

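The number of calcium genes lower with DB2313 was 6, and it was 3 to 11 when 1 library was omitted, lowest without control replicate 1 or DB2313 replicate 2 and highest without DB2313 replicate 3. Over all genes, the 842 lower calls became 485, 411 and 1311 in these fits. The number higher was 2 in all 15 alternatives, namely Tpcn1 and Trpm6. With a filter on low counts, Trpm6 could be tested only through the DB2313 libraries. Over the other alternatives 7 to 9 members passed, and none of the 8 was lost except Cacna1d with library totals. The partner genes higher, 6 with all libraries, were 3 (without control replicate 3) to 9 (without DB2313 replicate 3) when 1 library was omitted, and those lower, 5 with all libraries, were 1 (without control replicate 1 or DB2313 replicate 2) to 9 (without DB2313 replicate 3). Fits with 1 library fewer have less information by construction, and the cause of the rise without DB2313 replicate 3 was not tested.

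Replicate numbers were not taken as pairs, since the deviations of same-numbered libraries from their group means correlated at 0.0035, -0.024 and -0.12. With the replicate block the same 8 members passed, 3 partner genes were lower with the block and 3 with the block and the length offset, and Ppp3ca, Erlin1 and Slc8a2 were lost under the block. The sign of some values turned in some fits, none past the threshold. Most were near 0, but Ryr3 (-0.63 with all libraries) turned without control replicate 3. The log2 fold change of Stim1 was 0.0035 with DESeq2 size factors, 0.024 with library totals, 0.0092 without the filter, 0.0035 with DESeq2, 1.0e-04 with limma-voom, 0.074 with the length offset, 1.1e-04 with the replicate block and 0.075 with both. Trpm2 was at -0.0071 with limma-voom and -0.0048 with the replicate block, Trpv2 at 1.4e-04 with library totals, and Itpr1 at 0.077 with the length offset and 0.077 with the offset and the replicate block. When 1 library was omitted, the log2 fold change was -0.037 to 0.027 for Stim1, -0.12 to 0.066 for Trpm2, -0.080 to 0.043 for Trpv2, -0.14 to 0.013 for Itpr1, -0.15 to 0.26 for Cacna1f, -1.01 to 0.23 for Ryr3, -0.089 to 0.0085 for Calm3 and -0.020 to 0.072 for Micu2. The cause was not tested.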
